A study of Mus musculus with 6 samples.

Results

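Expression of 9 genes that mark successive steps of the oligodendrocyte lineage was followed in cultured mouse neural stem cells: Olig1, Olig2, Nkx2-2, Pdgfra, Cspg4, Gpr17, Myrf, Cnp and Mbp. They were chosen by name, as the rows whose Ensembl identifier carries 1 of these 9 symbols, and all 9 of 9 were found among 29267 gene identifiers. RNA sequencing gave 1 library for each of 6 groups, all from OG2 neural stem cells at passage 8. Cells were differentiated (labelled D2, which the labels do not spell out) or kept as neural stem cells (NSC), each with naloxone, which blocks opioid receptors, with DAMGO, a peptide that activates the mu opioid receptor, or without either. OG2 is known as a mouse strain with a green fluorescent reporter driven by regulatory sequence of Pou5f1, and all 6 groups share it. The series asks how naloxone affects the growth and differentiation of these cells. The labels give no dose, exposure time or age of the source animals, and do not state whether separate cultures were used, so the spread behind each p-value is that between 6 libraries and may be technical.

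Oligodendrocytes make the myelin sheath of the brain and spinal cord. Their progenitors are specified by the transcription factors OLIG1 and OLIG2, carry the PDGF receptor alpha and the NG2 proteoglycan on their surface, and divide in response to PDGF. Cells that leave the cycle pass through a committed precursor stage marked by GPR17, then switch on MYRF, the factor that drives the myelin programme, and finally make myelin proteins such as CNP and MBP. Some of these genes are also used outside the lineage: Pdgfra by fibroblasts, Cspg4 by pericytes, and Olig1 and Olig2 by neural stem cells in culture.

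In D2 cells the precursor genes Gpr17 and Pdgfra, and the early myelin gene Cnp, rose strongly, whereas Mbp and Myrf were at no more than a few TPM in either state (a level corrected for transcript length and library size). Of the 9 genes, 7 rose in D2 against NSC, 1 (Cspg4) fell and 1 (Myrf) did not pass the test, which was edgeR's quasi-likelihood test over the 3 ligand conditions with a Benjamini-Hochberg adjusted p under 0.05. The number that passed in either direction, 8 of 9, is near the share of all genes: 79.8% of the 13216 genes tested passed, 40.0% as higher and 39.8% as lower, and the median log2 fold change was 0.00. All 9 genes passed the filter of a mean of 10 counts, but Mbp did so only through its D2 counts, so its rise is not independent of the filter. On TPM, 6 genes had every D2 library above every NSC library and 1 had every D2 library below, against 39.4% and 39.6% of all tested genes. Among the 7 that rose, log2 fold changes ranged from 0.25 to 7.65.

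**Figure D1:**
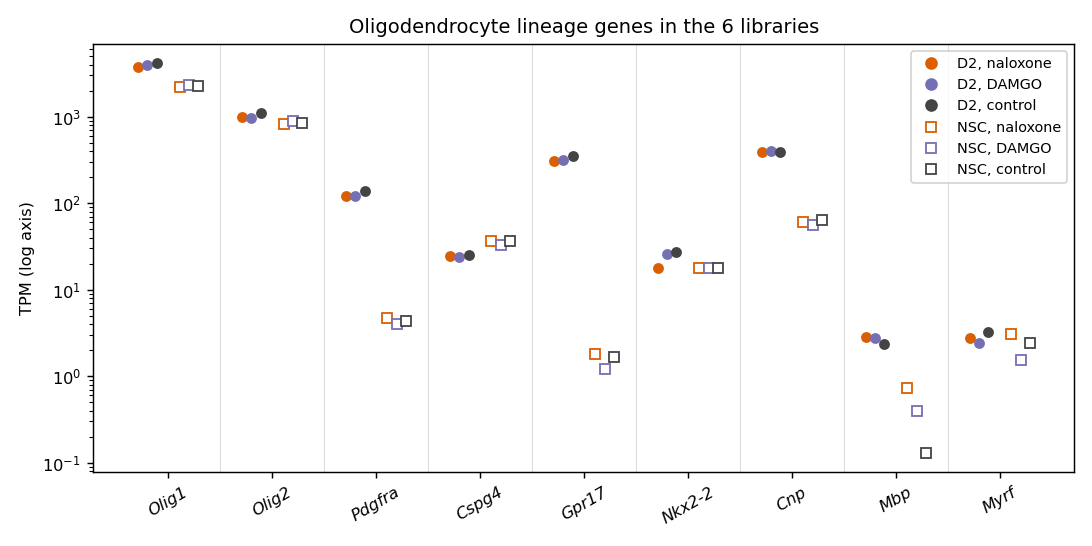
Level of each of the 9 genes in TPM (log axis) in the 6 libraries, with D2 as filled circles left of NSC as open squares, and colours for naloxone, DAMGO and control; each point is 1 library. Gpr17 and Pdgfra show the widest gaps between D2 and NSC, while Nkx2-2 and Myrf overlap.

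Library totals ranged from 8417074 to 10218353 expected counts in D2 and from 9112916 to 13561237 in NSC. Libraries of the same state differed by more than counting error, with a chi-square per degree of freedom of 3.74 to 3.96 between D2 libraries and of 1.58 to 1.84 between NSC libraries, so none was a copy of another. The limit that a count of 0 allows, 3 counts, is 0.221 to 0.356 CPM (counts scaled to a common library total) across the libraries, for counting error only. The stem cell filament gene Nes fell in D2, at 144 to 152 TPM in D2 libraries and 664 to 675 TPM in NSC libraries (edgeR log2 fold change -2.18, SE 0.04, adjusted p = 9.51e-13), while the stem cell factor Sox2 rose (0.63, SE 0.06, adjusted p = 5.49e-07).

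Of the lineage transcription factors, Olig1 and Olig2 were abundant in both states. Nkx2-2 was lower, with a mean level above 47.6% of tested genes in D2 and 39.6% in NSC. Olig1 (ENSMUSG00000046160, chromosome 16, 91269772 to 91271933, plus strand, mm10), a basic helix-loop-helix factor of progenitor formation and maturation, had 3764, 3959 and 4126 TPM in D2 with naloxone, with DAMGO and as control, against 2203, 2302 and 2292 TPM in the NSC libraries of the same conditions. It was the most abundant of the 9 genes in both states, above 99.9% of tested genes in D2 and 99.8% in NSC, and every D2 library lay above every NSC library. It averaged 3950 ± 181 TPM in D2 and 2266 ± 54.0 TPM in NSC (SD over the 3 ligand conditions), and rose by an edgeR log2 fold change of 0.79 (SE 0.04, adjusted p = 1.31e-09).

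Olig2 (ENSMUSG00000039830, chromosome 16, 91225457 to 91228677, plus strand), the related factor required for the lineage, had 981, 970 and 1111 TPM in D2 with naloxone, DAMGO and control, against 831, 882 and 845 TPM in NSC. The groups did not overlap, but the highest NSC library, that with DAMGO, came near the lowest D2 library, also with DAMGO. The rise was 0.25 on the log2 scale (SE 0.05, edgeR adjusted p = 0.000599). With limma on log2(TPM + 0.1) the difference was 0.26 with an adjusted p of 0.0544.

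Nkx2-2 (ENSMUSG00000027434, chromosome 2, 147177546 to 147194243, minus strand), a homeodomain factor that acts with OLIG2 in specification and differentiation, had 17.9, 25.9 and 27.6 TPM in D2 with naloxone, DAMGO and control, against 17.7, 18.0 and 18.0 TPM in NSC. On TPM the D2 naloxone library lay within the NSC range. On normalised CPM it did not: D2 libraries had 15.002, 17.9 and 20.3 CPM, against 12.8, 12.1 and 12.8 CPM in NSC. The scales part because the deposited mean transcript length of Nkx2-2 was 1935 bases in the D2 naloxone library and 1531 to 1668 bases in the other 5. Nkx2-2 rose by 0.49 on the log2 scale (SE 0.12, edgeR adjusted p = 0.00258), and with limma on log2(TPM + 1) the difference was 0.37 with an adjusted p of 0.0627. Nkx2-2os, an antisense gene that shares an exon position with Nkx2-2, had 6.17 to 11.7 expected counts in D2 and 2.11 to 7.43 in NSC; the library kit does not mark strand, so reads of such pairs cannot be told apart.

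The surface markers of the progenitor went in opposite directions. Pdgfra (ENSMUSG00000029231, chromosome 5, 75152292 to 75198215, plus strand), the receptor through which PDGF-AA drives progenitor division, had 120, 121 and 138 TPM in D2 with naloxone, DAMGO and control, against 4.75, 3.98 and 4.36 TPM in NSC. The lowest D2 library was far above the highest NSC library. Its mean was 126 ± 10.1 TPM in D2 and 4.36 ± 0.385 TPM in NSC, a 28.9-fold ratio of means, with an edgeR log2 fold change of 4.83 (SE 0.08, adjusted p = 3.50e-13).

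Cspg4 (ENSMUSG00000032911, chromosome 9, 56865033 to 56899870, plus strand), which encodes the NG2 proteoglycan by which progenitors are usually stained, was the only one of the 9 genes to fall. It had 24.6, 24.1 and 24.9 TPM in D2, against 36.7, 33.3 and 36.6 TPM in NSC, for naloxone, DAMGO and control in that order. The groups were separate, with a spread within D2 of less than 1 TPM. The log2 fold change was -0.54 (SE 0.06, adjusted p = 2.23e-06 in edgeR).

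Because these neighbours in role moved apart, the sequence at their annotated starts is shown with that of Cnp, the myelin gene with the most counts. Sequences are from RefSeq on GRCm38.p6 and run from 250 bases before to 50 bases after the start, on the plus strand for all 3 genes. The windows are chr5:75152001-75152300 for Pdgfra, chr9:56864854-56865153 for Cspg4 and chr11:100574689-100574988 for Cnp. Capitals mark matches, on either strand, to short motifs that recur at binding sites of lineage factors.
Pdgfra: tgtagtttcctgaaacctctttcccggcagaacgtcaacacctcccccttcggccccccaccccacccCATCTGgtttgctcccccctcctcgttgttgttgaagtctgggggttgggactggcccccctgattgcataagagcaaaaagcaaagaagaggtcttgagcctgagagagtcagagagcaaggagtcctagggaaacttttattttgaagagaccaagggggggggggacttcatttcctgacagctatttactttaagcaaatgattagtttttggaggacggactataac
Cspg4: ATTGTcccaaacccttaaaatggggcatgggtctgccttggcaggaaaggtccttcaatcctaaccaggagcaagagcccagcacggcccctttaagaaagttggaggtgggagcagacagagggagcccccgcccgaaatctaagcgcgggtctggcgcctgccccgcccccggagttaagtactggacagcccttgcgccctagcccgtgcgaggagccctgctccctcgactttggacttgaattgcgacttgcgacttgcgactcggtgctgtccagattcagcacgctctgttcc
Cnp: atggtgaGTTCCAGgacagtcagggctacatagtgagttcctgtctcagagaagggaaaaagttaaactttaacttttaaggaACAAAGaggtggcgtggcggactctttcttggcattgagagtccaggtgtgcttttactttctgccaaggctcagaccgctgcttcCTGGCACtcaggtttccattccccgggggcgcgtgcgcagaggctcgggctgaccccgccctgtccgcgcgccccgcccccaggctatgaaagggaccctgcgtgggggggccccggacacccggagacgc

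The motifs searched were CAGCTG and CATCTG (E-box forms bound by OLIG-type factors), ACAAAG and ACAAT (SOX-type), CTGGNAC (MYRF-type) and CACTTNA (NKX2-2-type), and no matches in the printed windows overlapped. The Pdgfra window held 1 CATCTG, a motif found in 17.2% of 32851 promoters of the same length. Cspg4 held 1 ACAAT, found in 31.0% of promoters, on the minus strand. Cnp held 1 ACAAAG, found in 18.7%, and 2 CTGGNAC, a motif found in 19.3%. Of the 9 genes 5 had a promoter entry. The window of Nkx2-2 held 1 CATCTG, 1 ACAAT and 1 CACTTNA (the last in 11.5% of promoters), that of Olig2 held 1 ACAAT, and CAGCTG, present in 16.3% of all promoters, was in none of the 5. These matches describe the letters in the windows and not occupied sites.

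Gpr17 showed the largest change of the 9 genes. Gpr17 (ENSMUSG00000052229, chromosome 18, 31942997 to 31949636, minus strand), a G protein-coupled receptor that is switched on in committed precursors and switched off before myelination, had 311, 313 and 349 TPM in D2 with naloxone, DAMGO and control, against 1.81, 1.20 and 1.67 TPM in NSC. The groups were far apart, and Gpr17 ranked below Olig1, Olig2 and Cnp in D2 and above only Mbp in NSC, where its range overlapped that of Myrf. In counts, the D2 libraries held 6107, 6596 and 8423 and the NSC libraries 58, 26 and 42. The means were 324 ± 21.3 TPM in D2 and 1.56 ± 0.320 TPM in NSC, a log2 difference in edgeR of 7.65 (SE 0.09, adjusted p = 9.22e-14).

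Gpr17 lies inside Lims2 on the opposite strand in GENCODE M21, and exons of the 2 genes overlap. Lims2, an adaptor at integrin contacts, had 39.6, 41.2 and 45.9 TPM in D2, against 0.59, 0.49 and 0.76 TPM in NSC, and rose by 6.07 on the log2 scale (SE 0.18, edgeR adjusted p = 2.95e-11). With 6, 3.33 and 6 expected counts in NSC, Lims2 reached the count filter only through D2. Its rise is thus not independent of the filter. Without strand the reads of this pair may be shared between the genes, so neither value is free of the other. The ratio of Gpr17 to Lims2 was 7.60 to 7.86 in D2 libraries and 2.20 to 3.07 in NSC libraries. With 3 libraries against 3, the exact permutation test (two-sided) gave p = 0.1, the smallest it can give. This ratio restates the different state changes of the 2 genes.

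Of the genes of the last stage, Cnp was high and the others were low. Cnp (ENSMUSG00000006782, chromosome 11, 100574904 to 100591729, plus strand), a phosphodiesterase of non-compact myelin that is already made by precursors, had 391, 396 and 392 TPM in D2 with naloxone, DAMGO and control, against 60.6, 55.4 and 64.4 TPM in NSC. D2 libraries differed from each other by less than 6 TPM. Cnp rose by 2.76 on the log2 scale (SE 0.06, edgeR adjusted p = 1.70e-12). It shares an exon position with Dnajc7 on the other strand, which had 376 to 405 TPM in D2 and 375 to 426 TPM in NSC.

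Mbp (ENSMUSG00000041607, chromosome 18, 82475146 to 82585637, plus strand), the main protein of compact myelin, had 2.82, 2.74 and 2.38 TPM in D2, against 0.73, 0.40 and 0.13 TPM in NSC, for naloxone, DAMGO and control in that order. The groups did not overlap, but the expected counts were small, at 27.1, 26.1 and 33.1 in D2 and 18.6, 4.01 and 3.02 in NSC. Mbp reached the count filter only through D2, and passed the test with a log2 fold change of 2.12 (SE 0.42, edgeR adjusted p = 0.000574). It was 3.07 without the naloxone library of either state, 1.94 without the DAMGO library of either state and 1.68 without the control library of either state, and passed in each case.

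The Mbp locus has an upstream start that gives the Golli transcripts, which lymphoid and neural cells also make, and a downstream start that gives the classical myelin protein. The deposited mean transcript length of Mbp was 2390 to 3024 bases in D2 and 2457 to 4797 bases in NSC. The value of 4797 bases, in the NSC control library, is the length of the upstream-start transcript Mbp-205 in GENCODE M21. With 3.02 expected counts there, the split between the starts is not resolved at this depth.

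Myrf (ENSMUSG00000036098, chromosome 19, 10208272 to 10240748, minus strand), the membrane-bound transcription factor that drives myelin genes, had 2.75, 2.42 and 3.26 TPM in D2 with naloxone, DAMGO and control, against 3.05, 1.53 and 2.39 TPM in NSC. The groups overlapped. The log2 fold change was 0.35 (SE 0.21) and did not pass (edgeR adjusted p = 0.141). It was 0.62 with an edgeR adjusted p of 0.0328 without the D2 naloxone library, and 0.62 with an adjusted p of 0.0289 without the NSC naloxone library. These are in effect 1 check, as either fit draws the state effect from the DAMGO and control pairs. The call thus rests on whether the naloxone pair is kept.

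Ranked by TPM within D2, the order was Olig1, Olig2, Cnp, Gpr17, Pdgfra, Cspg4, Nkx2-2, Myrf and Mbp. The ranges of neighbours were separate except for Cspg4 and Nkx2-2 and for Myrf and Mbp. Within NSC the order was Olig1, Olig2, Cnp, Cspg4, Nkx2-2, Pdgfra, Myrf, Gpr17 and Mbp, and only the ranges of Myrf and Gpr17 overlapped. Mean D2 levels of Mbp and Myrf lay above 11.3% and 11.8% of tested genes.

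Ratios between genes in the same library do not depend on its total. Olig1 over Olig2 was 3.84, 4.08 and 3.72 in D2 with naloxone, DAMGO and control, against 2.65, 2.61 and 2.71 in NSC. Pdgfra over Cspg4 was 4.86, 5.04 and 5.55 in D2, against 0.129, 0.120 and 0.119 in NSC, so the more abundant of these progenitor markers differed between the states. Gpr17 over Pdgfra was 2.60, 2.58 and 2.53 in D2, against 0.381, 0.302 and 0.383 in NSC. In each case the 3 D2 ratios lay above the 3 NSC ratios, with p = 0.1 in the exact two-sided permutation test, the smallest that 3 against 3 libraries allow. These ratios restate the state changes of the paired genes, which differed in size, and add no separate evidence. The share of other gene pairs with separate ratios was not computed. Cnp over Mbp was 139 to 165 in D2 and 83.1 to 496 in NSC, and the ranges overlapped (exact p = 1.0).

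**Figure D2:**
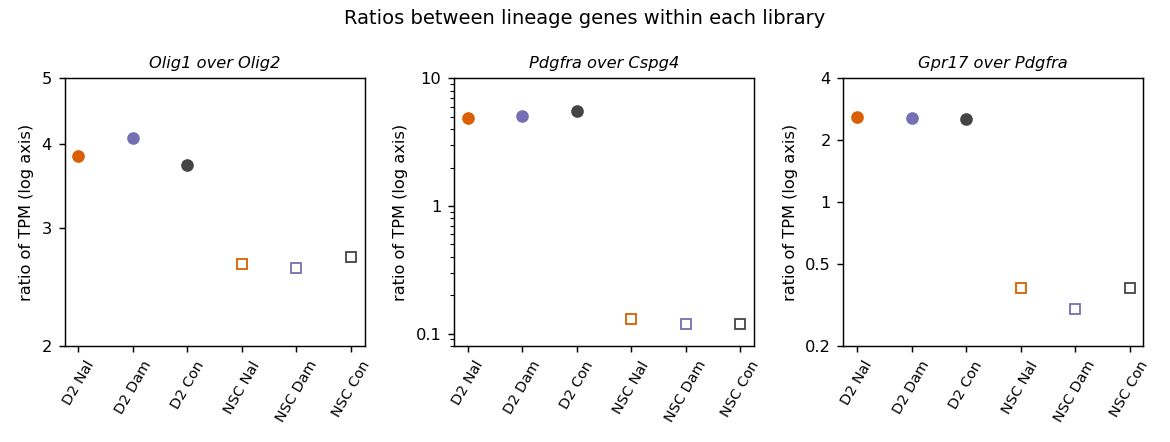
Ratio of TPM (log axis) between pairs of lineage genes in each of the 6 libraries, D2 as filled circles and NSC as open squares (Nal, naloxone; Dam, DAMGO; Con, control). Pdgfra over Cspg4 is 4.86 to 5.55 in D2 and 0.119 to 0.129 in NSC.

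Other progenitor genes mostly rose too. Of 16 genes listed, 15 were in the tables and tested, of which 13 rose and 2 fell, with a median log2 fold change of 1.64. Over all tested genes 40.0% were higher and 39.8% lower. Sox10 and Matn4 reached the count filter only through D2, so their place among the rises depends in part on the filter. Sox10, the factor that keeps the lineage identity, had 20.4, 23.4 and 25.9 TPM in D2 with naloxone, DAMGO and control, against 0.48, 0.36 and 0.62 TPM in NSC (edgeR log2 fold change 5.50, SE 0.18, adjusted p = 6.12e-11). C1ql1, a secreted C1q-like protein, had 35.8 to 45.6 TPM in D2 and 1.48 to 2.48 TPM in NSC. Like Pdgfra, both genes had NSC levels of a few TPM or less.

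Smaller rises were those of Matn4, a matrix adaptor (log2 fold change 3.07, SE 0.39), S100b, a calcium-binding protein (2.95, SE 0.20), Gpr37l1, an orphan receptor (2.93, SE 0.16), and Pcdh15, a protocadherin (1.66, SE 0.08). S100b and Gpr37l1 are also made by astrocytes. The most abundant of the list was Bcan, the proteoglycan brevican, at 1403 to 1478 TPM in D2 and 812 to 831 TPM in NSC. The 2 members that fell were the proteoglycan gene Vcan, with 24.7 to 26.8 TPM in D2 and 39.6 to 42.9 TPM in NSC (-0.92, SE 0.07), and Sox5, a repressor of precocious differentiation (-0.16, SE 0.06, edgeR adjusted p = 0.0353). The call of Sox5 was lost without the DAMGO or the control library of either state (edgeR adjusted p 0.172 to 0.203).

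Genes of the committed precursor stage went both ways, as all genes did. Of 22 listed, 16 were tested, of which 6 rose, 7 fell and 3 did not pass, beside 40.0% higher and 39.8% lower over all tested genes, with a median log2 fold change of -0.06. Lims2 reached the count filter only through D2 and Nkx6-2 only through NSC, so their calls depend in part on the filter. Beside Lims2, the rises were those of Mycl, a MYC family factor (2.96, SE 0.07), Sirt2, a deacetylase of myelinating cells (1.86, SE 0.05), Tcf7l2, a Wnt effector of maturing cells (0.70, SE 0.10), Tns3, a tensin of newly formed oligodendrocytes (0.70, SE 0.05), and Bcas1, a marker of early myelinating cells (0.52, SE 0.08). Sirt2 was at 364 to 378 TPM in D2 and 104 to 109 TPM in NSC. The largest falls were those of Nkx6-2, a homeodomain factor with 0 to 1.21 TPM in D2 and 2.22 to 3.83 TPM in NSC (-1.88, SE 0.56), Zeb2, a transcriptional regulator needed for myelination (-0.69, SE 0.06), and Cnksr3 (-0.43, SE 0.10). The call of Nkx6-2 was lost with limma on log2(TPM + 0.1) (adjusted p = 0.0592). Fyn, the kinase that links axon contact to process outgrowth and the most abundant of the list, was at 390 to 417 TPM in D2 and 461 to 476 TPM in NSC (-0.14, SE 0.05, edgeR adjusted p = 0.0296), and its call was lost without the naloxone or the DAMGO library of either state (adjusted p 0.0845 to 0.182).

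Some genes of this list had few or no counts. Bmp4 had at most 1 expected count in a library and Enpp6, a choline phosphodiesterase, also at most 1, in either state. Neu4, a sialidase, had 13 to 19 counts in D2 and 1 to 3 in NSC and was not tested. These 3 were named after their values were seen.

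Myelin genes other than Cnp and Mbp spanned a wide range of levels, and most of those tested rose. Of 24 listed, 13 were tested, of which 9 rose, 3 fell and 1 did not pass, with a median log2 fold change of 1.43. Over all tested genes 40.0% were higher and 39.8% lower. The 11 untested reached at most 1.76 TPM in any library, that of Fa2h. A gene low in NSC passed the count filter only through its D2 level, so these counts do not describe all 24. Mog, Mobp and Mag, proteins of the mature sheath, had at most 3, 1 and 2.17 expected counts in any library (named after their values were seen).

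Plekhb1 was the most abundant of the list, at 250 to 273 TPM in D2 and 64.0 to 65.9 TPM in NSC (log2 fold change 2.09, SE 0.06, edgeR adjusted p = 2.25e-11). Gal3st1, the sulfotransferase that makes the myelin lipid sulfatide, had 16.8, 18.6 and 16.9 TPM in D2 with naloxone, DAMGO and control, against 0.84, 0.16 and 0.27 TPM in NSC (5.33, SE 0.31). Cryab, a small heat shock protein, and Nfasc, an adhesion molecule of the paranode, rose by 1.99 (SE 0.17) and 1.76 (SE 0.09). Cntn2 also passed (2.56, SE 0.38), at 0.94 to 1.74 TPM in D2 and 0.11 to 1.08 TPM in NSC, with overlapping TPM ranges and no call with limma on log2(TPM + 1) (adjusted p = 0.0838). Falls were those of Trf, the iron carrier transferrin (-2.17, SE 0.31), Tspan2, a tetraspanin (-1.84, SE 0.24), and Cldn11, the tight junction protein of myelin (-0.63, SE 0.22). The call of Cldn11 was lost without the D2 DAMGO, NSC DAMGO or NSC control library (edgeR adjusted p 0.116, 0.133 and 0.0545).

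**Figure D3:**
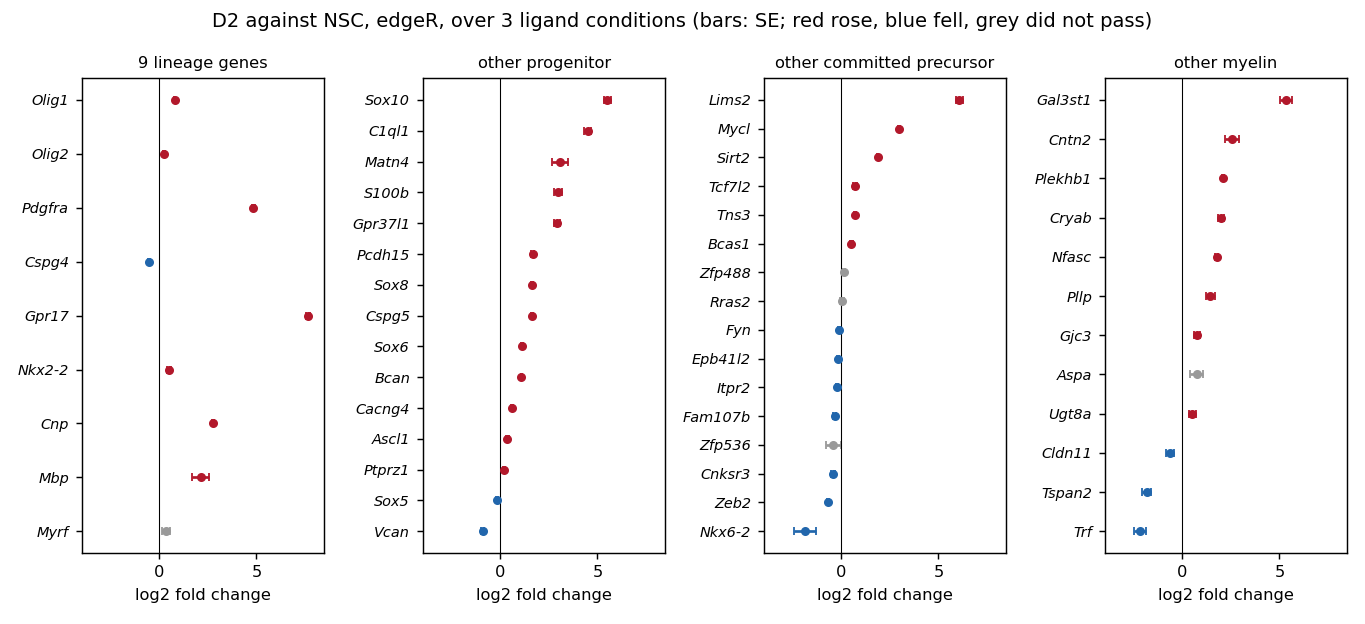
Log2 fold change of D2 against NSC from edgeR with its standard error, for the 9 lineage genes and for tested genes of the progenitor, committed precursor and myelin lists (1 gene is not shown); red passed as higher in D2, blue as lower in D2, and grey did not pass. The committed precursor genes lie on either side of 0, while 13 of 15 progenitor genes and most myelin genes shown lie to the right and passed.

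Around Pdgfra, the receptor rose and the calls of its ligands, which were lower, were not stable. Pdgfa, which encodes the main ligand of this receptor, had 19.5, 19.7 and 24.6 TPM in D2 with naloxone, DAMGO and control, against 29.3, 23.5 and 30.7 TPM in NSC, and fell by 0.30 on the log2 scale (SE 0.11, edgeR adjusted p = 0.0262) with overlapping TPM ranges. Pdgfc, another ligand of the receptor, fell by 0.39 (SE 0.13). Without the D2 or the NSC naloxone library neither fall was called (edgeR adjusted p 0.176 and 0.204 for Pdgfa, 0.130 and 0.139 for Pdgfc), nor with DESeq2 (0.165 and 0.127). Pdgfrb, the second receptor and a pericyte gene, had 73, 71 and 78 counts in D2, against 2, 0 and 1 in NSC (adjusted p = 2.73e-08). Of the 6 genes of this family 4 were tested, and Pdgfb and Pdgfd were not.

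Sonic hedgehog signalling induces the OLIG factors in development. Of its 12 listed genes 11 were tested, of which 6 rose, 3 fell and 2 did not pass, with a median log2 fold change of 0.55. The number that passed in either direction is near the share of all tested genes, 79.8%, with 40.0% higher and 39.8% lower. Among those that passed were the co-receptor Boc (2.81, SE 0.10), the ligand-binding inhibitor Hhip (-2.17, SE 0.31) and the transcription factor Gli2 (1.85, SE 0.10). Hhip had 8, 6 and 10 counts in D2 with naloxone, DAMGO and control. It reached the count filter only through NSC, so its call depends in part on the filter. Boc had 27.8 to 30.9 TPM in D2 and 3.89 to 4.71 TPM in NSC. The ligand gene Shh itself had 1.49 to 1.63 TPM in D2 and 1.17 to 1.37 TPM in NSC and did not pass (edgeR adjusted p = 0.364; named for its role, with its values already seen).

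Factors known to hold back oligodendrocyte maturation mostly rose in D2. Of 9 listed, 8 rose and 1 fell, with a median log2 fold change of 1.19, beside 40.0% higher and 39.8% lower over all tested genes. Id4 and Hey2 reached the count filter only through D2, so their place among the rises depends in part on the filter. Id4, an inhibitor of helix-loop-helix factors, had 82.5, 70.1 and 80.8 TPM in D2 with naloxone, DAMGO and control, against 1.31, 0.60 and 0.77 TPM in NSC (6.35, SE 0.15, edgeR adjusted p = 5.38e-12). The Notch targets Hey2, Hes5 and Hey1 rose by 4.04 (SE 0.37), 4.01 (SE 0.07) and 1.84 (SE 0.07), with Hes5 at 527 to 576 TPM in D2 and 29.9 to 35.3 TPM in NSC. Hes1, a further Notch target, was the member that fell (-1.41, SE 0.09; named after its value was seen). These genes are also active in astrocytes and stem cells.

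Markers of other cell types moved with the state as well, and their part in the changes above was not tested. In bulk RNA, a larger share of cells of a type and more RNA per cell cannot be told apart. Of 16 astrocyte genes 15 were tested and all 15 rose, with a median log2 fold change of 2.95; their summed level was 14570 to 14874 TPM in D2 and 1623 to 1711 TPM in NSC. Gfap, the astrocyte filament, had 5.77 to 9.73 TPM in D2 and 0.08 to 0.19 TPM in NSC, and reached the count filter only through D2. Of 12 tested genes of neuroblasts and neurons, 6 rose, 4 fell and 2 did not pass. The shares over all tested genes were 40.0% higher and 39.8% lower.

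For cells that share Pdgfra or Cspg4 with the lineage the picture was divided. Of 11 pericyte and mural genes 5 were tested and rose; some of them, such as Pdgfrb with 2, 0 and 1 counts in NSC, reached the count filter only through D2, so this count does not describe the list. The 11 genes had a summed level of 130 to 135 TPM in D2 and 11.9 to 17.8 TPM in NSC. Most of the D2 sum was Notch3, at 62.4 to 63.8 TPM, and Myl9, at 48.6 to 54.7 TPM (named after their values were seen). The higher sum in D2 therefore does not describe the other genes of this list. The defining pericyte markers Rgs5, Kcnj8 and Abcc9 had at most 0.31 TPM in any library. Of 10 fibroblast genes 6 were tested, of which 2 rose, 1 fell and 3 did not pass. The summed level of all 10 was 44.8 to 57.7 TPM in D2 and 102 to 116 TPM in NSC. Most of the NSC sum was Fbln2, at 93.2 to 99.6 TPM in NSC and 6.59 to 7.42 TPM in D2. The lower sum in D2 therefore does not describe the other fibroblast genes. Without the naloxone library of either state 5 fibroblast genes rose and 1 fell, and without the control library of either state 2 rose and 3 fell. Among Schwann cell genes, the peripheral counterpart that shares Sox10, 4 of 8 were tested, of which Sox10 rose, 2 fell and 1 did not pass. None of the 9 microglial genes reached the filter, at 0.24 to 0.39 TPM summed in D2 and 1.53 to 2.07 TPM in NSC, and the 1 endothelial gene tested of 6 did not pass.

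Neither opioid ligand passed the test for any of the 9 genes. Over both states, edgeR called 0 of 9 for naloxone against control, where 0.0151% of all tested genes were called, 0 of 9 for DAMGO against control (0.0151%) and 0 of 9 for naloxone against DAMGO (0.0303%). At an unadjusted p under 0.05 the fits held 293 (2.22%), 317 (2.40%) and 280 (2.12%) of 13216 genes, and the only lineage gene among them was Olig1 under naloxone (log2 fold change -0.11, unadjusted p = 0.0309, adjusted p = 1.0 in edgeR). No other tool run called a lineage gene for a ligand. The contrasts against control share the control libraries, and an effect of a ligand in only 1 state counts in part as error in this fit.

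Within D2, where each condition is 1 library and no test is possible, the 9 genes tended to be lower with a ligand than in the control library, by small amounts. With naloxone over control all 9 log2 ratios were below 0, from -0.56 to -0.02 with a median of -0.20, where 49.9% of all tested genes were below 0. On log2(TPM + 0.1) Mbp turned to 0.24 with naloxone and 0.20 with DAMGO over control, and Cnp was at -0.00 with naloxone, so the count of 9 holds for CPM only. For 6 of them the 95% counting interval of the ratio lay below 0, against 10.3% of all tested genes and 13.5% of those of at least 20 CPM. With DAMGO over control 8 of 9 were below 0 (50.3% of all tested genes), with a median of -0.15, and 4 intervals lay below 0, against 8.26% of tested genes and 10.7% of those of at least 20 CPM. Both sets of ratios use the same D2 control library, so they are not separate observations, and the intervals cover counting error only. An interval narrows as counts grow, and Pdgfra, Gpr17, Olig2 and Olig1 had 414 to 3983 CPM in the D2 control library. The shares of all tested genes and of those of at least 20 CPM are therefore not matched to these genes in level.

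Gene by gene, the D2 ratio of naloxone to control was -0.24 for Pdgfra (interval -0.30 to -0.17), -0.21 for Olig2 (-0.25 to -0.17), -0.20 for Gpr17 (-0.24 to -0.15) and -0.16 for Olig1 (-0.18 to -0.14), all on the log2 scale. For DAMGO over control the same genes gave -0.18 (-0.24 to -0.11), -0.19 (-0.22 to -0.15), -0.15 (-0.19 to -0.10) and -0.05 (-0.07 to -0.03). These 4 genes lay below the control library with either ligand. Cnp did not, at -0.03 (-0.10 to 0.04) with naloxone and 0.02 (-0.04 to 0.09) with DAMGO. Nkx2-2 was at -0.43 (-0.77 to -0.11) with naloxone and Myrf at -0.56 (-1.18 to -0.0028), both from fewer counts. On CPM no lineage gene passed a 1.5-fold ratio in D2 (on log2(TPM + 0.1), Nkx2-2 did for naloxone over control, at -0.62), where 4.14% of tested genes were past it as higher and 2.55% as lower for naloxone over control, 4.28% and 2.47% for DAMGO over control, and 2.72% and 3.05% for naloxone over DAMGO.

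Other gene groups had their own median ratios in the same D2 libraries, and the differences between groups were not tested. For naloxone over control the median log2 ratio was -0.05 over 15 other progenitor genes, -0.08 over 16 other committed precursor genes, 0.13 over 13 other myelin genes, -0.05 over 15 astrocyte genes and -0.27 over the 4 tested PDGF ligands and receptors, which include Pdgfra. The 6 tested fibroblast genes had a median of -1.27, with 4 below 0 and 2 above, and Col3a1, a fibrillar collagen, had 3, 4 and 40 counts in D2 with naloxone, DAMGO and control. In NSC, Col3a1 had 19, 0 and 1 counts in the same order. The part of such transcripts in the ratios of the lineage genes was not tested. Between the ligands themselves, naloxone over DAMGO, 8 of the 9 genes were below 0 (49.7% of all tested genes) with a median of -0.05, and 1 interval, that of Olig1, lay below 0 (-0.11, from -0.13 to -0.09), as did 9.29% of all tested genes.

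In NSC the ratios lay on both sides of 0. For naloxone over control 4 were below and 5 above, with a median of 0.00, and 51.2% of all tested genes were below. For DAMGO over control 6 were below and 3 above, with a median of -0.13, and 51.6% of all tested genes were below. On CPM, Mbp with naloxone over control was the only such ratio past 1.5-fold in NSC, with 19 rounded counts with naloxone and 3 in the control library (log2 ratio 1.74, interval 0.55 to 4.71), and with 4 with DAMGO; of all tested genes 2.19% were past 1.5-fold as higher and 1.59% as lower for naloxone over control, and 2.04% and 2.39% for DAMGO over control. On log2(TPM + 0.1) the DAMGO ratios of Myrf (-0.61) and Mbp (1.12) over control were past it too. Cspg4 with DAMGO was at -0.14 (-0.26 to -0.03).

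**Figure D4:**
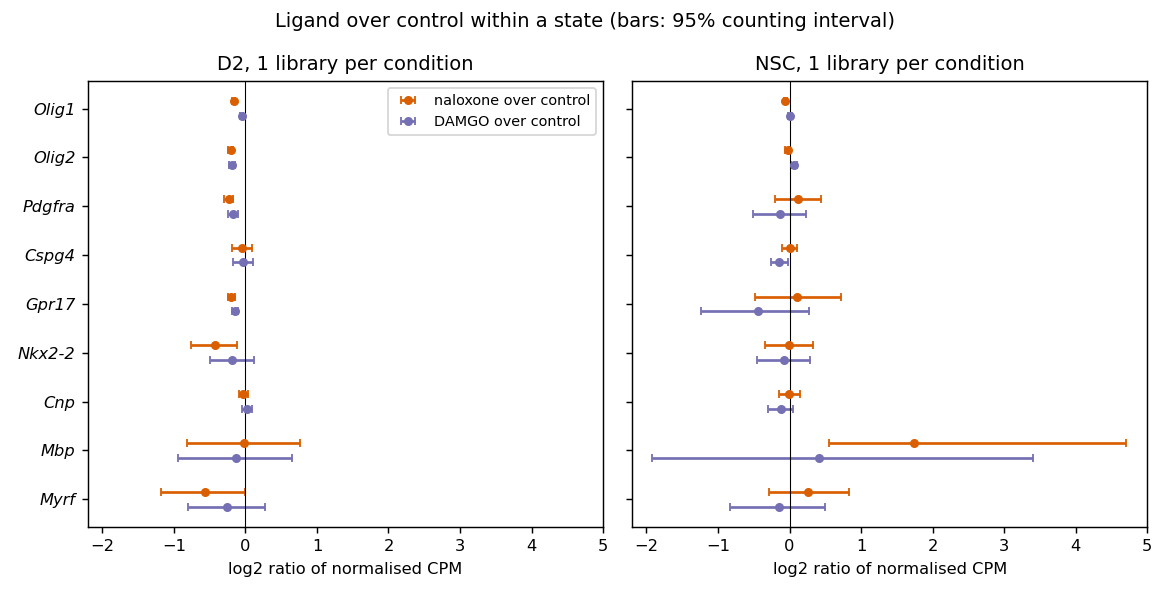
Log2 ratio of normalised CPM of naloxone (orange) and DAMGO (purple) over the control library, for each of the 9 genes, in D2 on the left and in NSC on the right; bars are exact binomial 95% counting intervals, with 1 library per condition. In D2 all 9 naloxone points lie left of 0, and in NSC the interval of Mbp, from 0.55 to 4.71, is the widest above 0.

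Among 10297 genes of at least 5 CPM in D2, the genes with profiles most like those of the lineage genes over the 6 libraries were found by the root mean square difference of log2 levels, each centred on its own mean. For Pdgfra these were S1pr1, a sphingosine phosphate receptor (difference 0.055), Gsg1l, a subunit of glutamate receptors (0.077), and Vcam1, an adhesion molecule (0.107), and 17 genes lay within 0.25. S1pr1 had 190, 183 and 201 TPM in D2 with naloxone, DAMGO and control, against 6.76, 6.05 and 6.21 TPM in NSC. For Gpr17 only Ndrg2 lay within 0.25 (0.148), an astrocyte-enriched gene with 936 to 979 TPM in D2 and 3.35 to 4.54 TPM in NSC; Tmem132b (0.391) and Abhd3 (0.451) followed. For Cnp they were Atp1b2, a sodium pump subunit (0.028), Nnat (0.031) and Apc2 (0.057), with 169 genes within 0.25.

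The remaining profiles were common ones. Within 0.25 of Olig1, Olig2, Cspg4, Nkx2-2 and Myrf lay 2722, 3908, 2966, 3127 and 2219 genes. The nearest were Ankrd46, Dynll2 and Dip2a for Olig1, Rnf139, Psmb4 and Ppm1b for Olig2, Urb1, Utp11 and Cops7a for Cspg4, Mfsd4b4, Ero1lb and Eid2 for Nkx2-2, and Rsph3a, Xylt2 and Nudt9 for Myrf. Mbp was below the level at which profiles were compared. With differences as small as 0.018 over 6 libraries that share 2 states and 3 conditions, these neighbours describe a shared pattern of levels only.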

How the data were processed

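Per the labels' protocols, Trizol RNA went into TruSeq libraries, a kit known not to keep strand. Bowtie and RSEM were used on mm10, per the submitters' processing notes (the sources used here give no version, annotation or read filter). The expected counts the authors deposited are RSEM estimates that divide reads matching several transcripts. The deposited TPM values are per length and have a common total per library, per the file headers and values, and the tables also hold a mean transcript length per gene. FPKM was not used. Symbols (28756 of 29267 identifiers) and positions came from GENCODE M21, which differs from the authors' annotation in places (Olig2 is 2437 bases in the tables and 2530 in GENCODE M21).

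Expected counts were rounded, moving a library total by at most 46.1. The 13216 genes whose mean count was 10 or more were fitted with edgeR 4.0.16 in R 4.3.3 (TMM, quasi-likelihood test), with state and ligand as additive terms and 2 residual degrees of freedom. Benjamini-Hochberg adjustment ran over all tested genes, with a threshold of 0.05. The common biological coefficient of variation was 0.0529. Ligand ratios within a state used CPM scaled by TMM, a prior count of 2 and exact binomial 95% intervals, with no test, as each group is 1 library. Ratios of genes within a library were compared by exact permutation (scipy 1.17.1). In simulated D2 against NSC data over 13216 genes, 67, 67 and 66 genes were changed by 1.5-fold, 2-fold and 4-fold. All other genes had equal levels in the 6 libraries. Of these changes 71.6%, 92.5% and 93.9% were recovered, and 16 unchanged genes were called. Far fewer genes changed there than in the real data, where 79.8% were called for state, so these rates do not carry over to it. Alternatives were other scalings, count filters, DESeq2 1.42.0, limma 3.58.1 on log2(TPM + 1) and log2(TPM + 0.1), no ligand terms, and leaving out each library. Leaving out the D2 or the NSC library of a condition gives nearly the same state estimate. The library that stays is then taken up by its ligand term, so the 2 are not separate checks of state.

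The 9 genes and the lists of other genes were chosen with earlier results of these data known. From the progenitor, committed precursor and myelin lists the text names up to 6 genes with the largest rise and 3 with the largest fall past the threshold, the most abundant gene and Sox10; from the PDGF, Sonic hedgehog and inhibitor lists up to 4 called genes; from marker lists at most 3; genes overlapping one of the 9; and the 3 nearest profiles of genes of at least 5 CPM. Exceptions are marked in the text, and 2 genes that the rule takes are not reported here by name, though counts over their lists include them.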

Additional observations from a re-analysis of the deposited data

Results flagged for a closer look

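The DAMGO ratios of Olig2 had opposite signs in the 2 states. Its log2 ratio of DAMGO over control was -0.19 in D2, from 1 library of each condition, and 0.06 in NSC, and both 95% counting intervals excluded 0 (-0.22 to -0.15 in D2 and 0.02 to 0.10 in NSC). Of all tested genes, 8.26% had such an interval below 0 in D2 and 3.59% above 0 in NSC. The intervals cover counting error only, are narrow for a gene this abundant, and libraries of a state differed by more than counting error. Olig2 was picked out because the only DAMGO library of each state moved in opposite directions from its control. The difference between the states was not tested, and both ratios are under 1.5-fold.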

How the results depend on the processing

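Of the 9 state results, Olig1, Pdgfra, Cspg4, Gpr17, Cnp and, where it was tested, Mbp kept direction and call under every alternative run. Mbp was not tested at a mean of 50 counts. Nkx2-2 lost its call with limma on log2(TPM + 1) and log2(TPM + 0.1) (adjusted p 0.0627 and 0.0833), and Olig2 with limma on log2(TPM + 0.1) (0.0544); the cause was not tested. Over the settings that leave out 1 library, 8 to 9 lineage genes and 9917 to 10173 of all genes were called for state, against 8 and 10543 with all libraries. DESeq2 called 9096 genes for state. Over all alternatives run, the other progenitor list held 12 to 13 rises and 1 to 2 falls, the committed precursor list 6 to 7 and 3 to 7, the myelin list 8 to 10 and 0 to 3, the Sonic hedgehog list 6 to 7 and 1 to 3 and the inhibitor list 7 to 8 and 1 (some list genes are not tested at a mean of 50 counts), and the median over all genes stayed within -0.02 to 0.02.

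No alternative called a lineage gene for a ligand, and the counts over all genes were unstable. Naloxone against control called 2 genes, 0 with RLE size factors (268 at an unadjusted p under 0.05), 45 with no filter on low counts, 0 at a mean of 50 counts (259), 1 with DESeq2, 0 with limma on log2(TPM + 1) (504) and 0 on log2(TPM + 0.1) (463), and 1 to 74 without 1 library. DAMGO against control called 2 genes, 83 with no filter, 0 with DESeq2 (44 unadjusted), 0 with limma on log2(TPM + 1) (531) and 0 on log2(TPM + 0.1) (486), and 4 to 123 without 1 library. Naloxone against DAMGO called 4 genes, 1 with RLE, 1 with library totals only, 53 with no filter, 0 with DESeq2 (24 unadjusted), 0 with limma on log2(TPM + 1) (512) and 0 on log2(TPM + 0.1) (471), and 5 to 37 without 1 library. Among the settings that leave out a library, the highest counts for naloxone and for DAMGO against control came without the NSC control library, and for naloxone against DAMGO without the NSC DAMGO library; the cause was not tested. Ligand log2 fold changes that turned sign were those of Cspg4 for naloxone with no filter (0.01), Myrf for naloxone with limma on log2(TPM + 1) and log2(TPM + 0.1) (0.04 and 0.05), and Mbp for DAMGO with DESeq2 (0.08) and limma on log2(TPM + 1) and log2(TPM + 0.1) (0.23 and 0.66). Without 1 library, those that turned sign ranged, for naloxone against control Pdgfra -0.23 to 0.11, Cspg4 -0.07 to 0.03, Gpr17 -0.21 to 0.24, Cnp -0.06 to 0.04, Myrf -0.56 to 0.24; for DAMGO against control Olig1 -0.06 to 0.02, Olig2 -0.17 to 0.04, Pdgfra -0.28 to 0.01, Nkx2-2 -0.26 to 0.01, Cnp -0.13 to 0.03, Mbp -0.59 to 1.41, Myrf -0.44 to 0.06; for naloxone against DAMGO Olig2 -0.13 to 0.02, Pdgfra -0.06 to 0.28, Gpr17 -0.04 to 0.46, Nkx2-2 -0.28 to 0.11, Cnp -0.05 to 0.12, Myrf -0.34 to 0.45. On log2(TPM + 0.1), the D2 ratio of Olig1 was -0.13 for naloxone over control and -0.07 for naloxone over DAMGO, and that of Olig2 was 0.02 for naloxone over DAMGO; those of Mbp were 0.24 for naloxone and 0.20 for DAMGO over control, and that of Myrf was 0.18 for naloxone over DAMGO (on CPM -0.02, -0.13 and -0.31).

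No paired analysis was possible by replicate number, because each group held 1 library and the labels carry none; the additive fit compares the states within each ligand condition, and without ligand terms 10710 genes were called for state. Mbp and Myrf rest on at most 33.1 and 72.4 expected counts in a library, so the counting intervals of their ligand ratios are wide. Only those of Myrf for naloxone over control in D2, and of Mbp for naloxone over control and over DAMGO in NSC, excluded 0. They rest on few counts in single libraries and were not tested.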
